A study of Mus musculus with 3 samples.

Results

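The CC chemokines are small secreted proteins named for a pair of adjacent cysteines near their start. The 10 genes described here, Ccl2, Ccl3, Ccl4, Ccl5, Ccl6, Ccl7, Ccl9, Ccl12, Ccl20 and Ccl22, were taken as a list, matched by gene symbol and then by gene identifier, and all 10 of 10 were found among 55536 annotated genes. The samples were 3 libraries of macrophages grown from bone marrow of C57BL/6J mice (the labels give the cells as primary and name no sex or age), all exposed for 15 min to 100 ng/ml lipid A. Lipid A is the membrane anchor of lipopolysaccharide and the ligand of TLR4. RNA of the chromatin fraction, which is enriched for transcripts still at the DNA, was depleted of ribosomal RNA and sequenced. The 3 libraries form 1 group under 1 donor label, with separate biosample labels, so their spread may be partly technical. No unstimulated library was analysed here, so levels below are levels after lipid A and not responses to it.

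Replicates 1, 2 and 3 started from 1 µg, 250 ng and 500 ng of RNA. The gene table held 10974934, 21376404 and 14376665 expected counts in that order, and protein-coding genes took 23.9%, 16.7% and 25.3% of its TPM (transcripts per 1000000, a level per length). All 7 macrophage markers checked had a mean of at least 1 TPM, and their sum ran from 423.14 to 706.09 TPM. Of 25 markers of neutrophils, lymphocytes, mast cells, dendritic cells and stromal or endothelial cells, 1 reached that mean (Zbtb46, a dendritic cell factor) and 9 had no count, with sums of 3.01, 3.16 and 3.6 TPM in replicates 1, 2 and 3. In bulk RNA such as this, fewer expressing cells and less RNA per cell cannot be told apart.

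CC chemokines bind G protein-coupled receptors on leukocytes and draw those cells toward the source. Ccl2, Ccl7 and Ccl12 attract monocytes through the receptor CCR2. Ccl3, Ccl4 and Ccl5 are inflammatory chemokines that attract monocytes and T cells, and Ccl3 and Ccl5 bind CCR1. Ccl6 and Ccl9 are ligands found in rodents that bind CCR1 and are made by myeloid cells also at rest. Ccl20 is the ligand of CCR6, and Ccl22, a product of macrophages and dendritic cells, is a ligand of CCR4. In macrophages, TLR4 signalling through NF-kB is known to induce many of these genes.

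Of the 10 genes, 8 lie on chromosome 11 in 2 groups (GRCm38/mm10, GENCODE M21). The monocyte chemoattractants share the plus strand: Ccl2 (ENSMUSG00000035385.5) spans chr11:82035571-82037453, Ccl7 (ENSMUSG00000035373.2) chr11:82045712-82047525 and Ccl12 (ENSMUSG00000035352.3) chr11:82101845-82103400. The other group holds Ccl5 (ENSMUSG00000035042.2) at chr11:83525778-83530518, Ccl9 (ENSMUSG00000019122.8) at chr11:83572919-83578636, Ccl6 (ENSMUSG00000018927.3) at chr11:83587882-83593087 and Ccl3 (ENSMUSG00000000982.5) at chr11:83647844-83649355, all on the minus strand. Ccl4 (ENSMUSG00000018930.3) follows at chr11:83662584-83664683 on the plus strand. Ccl20 (ENSMUSG00000026166.14) lies at chr1:83116766-83119167 and Ccl22 (ENSMUSG00000031779.3) at chr8:94745590-94751699, both on the plus strand.

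Chromatin RNA can hold introns, and the annotation includes transcript models of Ccl2, Ccl5 and Ccl6 that keep intron sequence. The stretches below show where exon gives way to intron in those models, because much of these genes' RNA was assigned to them. They were read 5′ to 3′ on the gene's strand from GRCm38, with exon bases in lower case and bases of an intron of the coding model in capitals. The stretch of Ccl2-202 is chr11:82036581-82036640, that of Ccl5-202 chr11:83529116-83529175, that of Ccl6-203 chr11:83589717-83589776 and that of Ccl6-202 chr11:83589785-83589844. For Ccl9-202 the capitals are the model's own first exon, chr11:83577104-83577142, joined to the start of its next exon, chr11:83576427-83576446.
Ccl2-202: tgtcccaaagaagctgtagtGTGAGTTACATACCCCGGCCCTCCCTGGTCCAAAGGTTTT
Ccl5-202: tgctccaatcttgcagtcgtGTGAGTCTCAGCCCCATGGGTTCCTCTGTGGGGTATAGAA
Ccl6-203: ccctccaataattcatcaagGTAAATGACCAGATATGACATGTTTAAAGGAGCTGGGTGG
Ccl6-202: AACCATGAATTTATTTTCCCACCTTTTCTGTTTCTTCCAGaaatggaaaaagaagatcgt
Ccl9-202: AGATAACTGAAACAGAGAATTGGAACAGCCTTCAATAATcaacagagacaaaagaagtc
In Ccl2-202, Ccl5-202 and Ccl6-203 the capitals open with GT, the letters at the start of most introns. In Ccl6-202 they close with AG, the letters at the end of most introns.

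RefSeq promoter windows (GRCm38.p6, 250 bases before to 50 after the start of a gene) were at hand for Ccl3, Ccl6, Ccl9, Ccl12, Ccl20 and Ccl22. The 100 bases before the start are printed for Ccl9, a gene with RNA in every library, for Ccl20, which had none, and for Ccl3, to set the letters of the promoters beside the levels. Capitals mark matches, on either strand, to the motifs named after the sequences. The windows are chr11:83578637-83578736 and chr11:83649379-83649478 on the minus strand for Ccl9 and Ccl3, and chr1:83116666-83116765 on the plus strand for Ccl20.
Ccl9: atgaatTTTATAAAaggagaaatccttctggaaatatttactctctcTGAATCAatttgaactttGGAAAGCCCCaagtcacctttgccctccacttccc
Ccl20: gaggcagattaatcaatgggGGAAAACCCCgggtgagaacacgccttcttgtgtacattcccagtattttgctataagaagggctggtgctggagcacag
Ccl3: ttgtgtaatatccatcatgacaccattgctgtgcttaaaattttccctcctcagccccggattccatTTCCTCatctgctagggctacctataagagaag
The NF-kB consensus was matched in 2 of the 6 windows, Ccl9 (35 to 26 bases before the start) and Ccl20 (80 to 71 bases before), against 8.46% of 32851 RefSeq promoters. The AP-1 motif TGANTCA was matched in Ccl9 (53 to 47 bases before), against 7.81% of promoters. The PU.1 core GAGGAA was matched in Ccl20, Ccl12 and Ccl3, against 28.3%, and TATAAA in Ccl12 and Ccl9, against 13.6%. In Ccl9 the TATAAA match overlaps a match on the opposite strand. The C/EBP motif TTGCNNAA was matched in none of the 6 windows, against 10.8%. These matches describe letters only: the promoters of Ccl9, with RNA, and Ccl20, with none detected, both held the NF-kB letters.

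Chromatin RNA of 8 of the 10 chemokines was counted in every library, and none was counted for Ccl20 and Ccl22 in the gene table. The share of all protein-coding genes counted in every library is not given. A level of at least 1 TPM in all 3 libraries was reached by 7 of the 10, all but Ccl12, Ccl20 and Ccl22. The background for this rule was 42.4% of 22028 protein-coding genes. The order by mean TPM was Ccl4, Ccl3, Ccl9, Ccl6, Ccl2, Ccl7, Ccl12 and Ccl5. Together the members took 0.104%, 0.0509% and 0.0526% of the protein-coding TPM in replicates 1, 2 and 3, a mean of 0.0693% ± 0.0304 (SD, n = 3). Values of TPM in this text are those of the gene table unless the second quantification, another deposited estimate from the same libraries, is named.

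Among the inflammatory chemokines Ccl3, Ccl4 and Ccl5, Ccl4 measured 64.01, 26.32 and 35.97 TPM in replicates 1, 2 and 3, from 397, 349 and 234 counts. Its mean of 42.1 TPM ± 19.6 (SD, n = 3) was rank 1233 of 22028 protein-coding genes, in the top 5.60%. Ccl4 was the highest of the 10 genes in each library. Ccl3, its neighbour on the opposite strand, measured 57.96, 12.34 and 24.62 TPM from 443, 205 and 201 counts, a mean of 31.64 ± 23.6 (SD, n = 3). Replicate 1 held the high value of both genes, and without it the mean of Ccl3 was 18.48 TPM. Ccl5, which is known as a late gene of the macrophage response, measured 1.73, 1.81 and 4.73 TPM from 10, 23 and 26 counts, with a mean of 2.76 ± 1.71 (SD, n = 3). Here replicate 3 was highest, and all 3 values lay below every value of Ccl3 and Ccl4. Without replicate 3 the mean of Ccl5 was 1.77 TPM.

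The CCR1 ligands Ccl9 and Ccl6 had nearly equal means and unlike spreads. Ccl9 measured 45.28, 8.63 and 23.18 TPM in replicates 1, 2 and 3, a mean of 25.7 ± 18.5 (SD, n = 3), and it had the most counts of any member, 1725, 755 and 1003. Ccl6 measured 29.58, 22.05 and 24.3 TPM from 298, 408 and 266 counts, a mean of 25.31 ± 3.87 (SD, n = 3). Ccl9 was above Ccl6 in replicate 1 and below it in replicates 2 and 3, so the 2 levels were not separated in the gene table, while in the second quantification Ccl9 was above Ccl6 in 3 of 3 libraries. Without replicate 1 the mean of Ccl9 was 15.9 TPM and that of Ccl6 23.2 TPM.

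The monocyte chemoattractants had lower means than Ccl3, Ccl4, Ccl6 and Ccl9. Ccl2 measured 25.6, 6.26 and 9.73 TPM in replicates 1, 2 and 3, from 288, 161 and 121 counts, a mean of 13.9 ± 10.3 (SD, n = 3), and 7.995 TPM without replicate 1. Ccl7 measured 17.98, 6.83 and 9.3 TPM from 146, 121 and 81 counts, a mean of 11.37 ± 5.86 (SD, n = 3). In TPM as deposited both were highest in replicate 1 and lowest in replicate 2. The lowest library depended on the scaling. With TPM scaled to protein-coding genes Ccl7 was lowest in replicate 3, at 36.7 against 41.0 in replicate 2. With counts scaled by edgeR TMM factors Ccl2 was also lowest in replicate 3. Ccl12 measured 7.5, 0.64 and 1.31 TPM from 34, 6 and 6 counts, a mean of 3.15 ± 3.78 (SD, n = 3). Replicate 1 stood apart for Ccl12: its 34 counts have a 95% exact Poisson interval of 23.5 to 47.5, and 6 counts one of 2.20 to 13.1, which cover counting error only. Without replicate 1 the mean of Ccl12 was 0.975 TPM.

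Ccl20, the ligand of CCR6, had 0 expected counts in every library of the gene table and 0 in the second quantification. A floor of 3 counts corresponds to 0.279, 0.126 and 0.255 TPM for Ccl20 in replicates 1, 2 and 3. Ccl22 had 0 expected counts in the gene table, with a floor of 0.199, 0.0882 and 0.179 TPM, but 17, 28 and 16 estimated counts in the second quantification. Its level there was 0.494 TPM ± 0.257 (SD, n = 3), below 1 TPM in each library. Such a pattern, more than 3 counts in all 3 libraries in the second quantification and at most 3 in the gene table, held for this 1 of the 10 members, beside 12.6% of 21951 protein-coding genes. RNA of Ccl20 was thus not detectable at this depth in either estimate, while Ccl22 was detected in the second quantification alone.

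**Figure D1:**
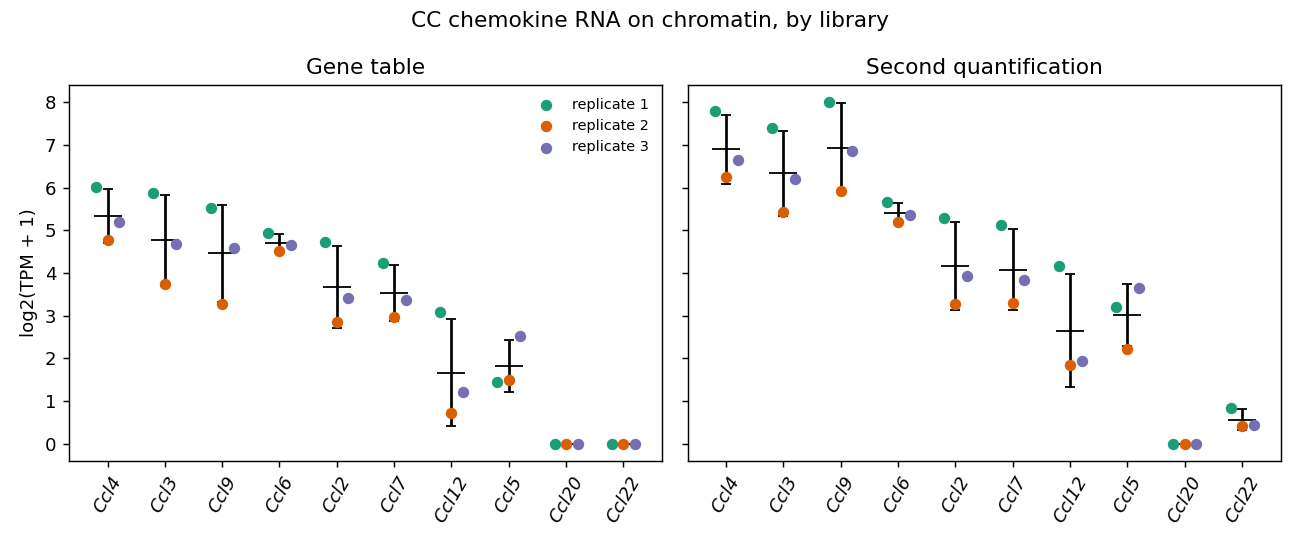
Level of each CC chemokine, in log2(TPM + 1), in the gene table (left) and the second quantification (right), with a point for each of the 3 libraries and a bar and whiskers for the mean and SD of the log values. Ccl4 leads the gene table and Ccl9 lies beside it in the second quantification, the points of Ccl6 lie close together, and Ccl22 leaves 0 only on the right.

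In the order of means, 4 of the 7 adjacent pairs were separated, with 1 gene at the higher TPM in all 3 libraries. The TPM intervals deposited with the gene table still overlapped in 1 library for Ccl4 and Ccl3, for Ccl3 and Ccl9, and for Ccl6 and Ccl2. For Ccl7 and Ccl12 they overlapped in no library. Ccl4 exceeded Ccl3 by 1.10, 2.13 and 1.46 times in replicates 1, 2 and 3. Ccl3 exceeded Ccl9 by 1.28, 1.43 and 1.06 times, the narrowest of the separated pairs. Ccl6 also exceeded Ccl2, and Ccl7 exceeded Ccl12, in each library. The pairs Ccl9 and Ccl6, Ccl2 and Ccl7, and Ccl12 and Ccl5 changed places between libraries. With 3 libraries the smallest p of an exact two-sided sign-flip test is 0.25, so no pair could pass a threshold of 0.05 and no test is given.

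Each gene's share of the members' summed TPM gives the makeup of the CC chemokine RNA apart from its total. The total was 249.64, 84.88 and 133.14 TPM in replicates 1, 2 and 3. Ccl4 took 27.9% ± 2.79 and Ccl7 7.41% ± 0.561 (SD, n = 3 each), which varied little against the change in total. Ccl6 took 11.8%, 26.0% and 18.3% in replicates 1, 2 and 3, so its share was lowest where the total was highest. Ccl3 took 18.7% ± 4.35 and Ccl9 15.2% ± 4.41 of the sum (SD, n = 3 each), and both had their lowest share in replicate 2.

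To describe how the members varied over libraries, TPM was rescaled to a sum of 1000000 over protein-coding genes. Of the 10 members, 6 had at least 50 counts in a library, Ccl2, Ccl3, Ccl4, Ccl6, Ccl7 and Ccl9, and Ccl5, Ccl12, Ccl20 and Ccl22 did not. On this scale 5 of the 6 were highest in replicate 1, beside 35.3% of 9828 protein-coding genes under the same rule. Replicate 1 was at least 2-fold over replicate 2 for 3 of the 6, Ccl2, Ccl3 and Ccl9, beside 6.18% of those genes. The full order replicate 1, then 3, then 2 was found for the same 3 members, beside 29.1%.

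Ccl3 measured 243, 74.0 and 97.3 rescaled TPM in replicates 1, 2 and 3, and Ccl9 measured 190, 51.8 and 91.6. Replicate 1 over replicate 2 was 3.28-fold for Ccl3, 3.66-fold for Ccl9 and 2.85-fold for Ccl2. Ccl4, at 268, 158 and 142 rescaled TPM, and Ccl7, at 75.3, 41.0 and 36.7, had smaller ratios of 1.70 and 1.84. For these, replicates 2 and 3 were close and replicate 1 was high. Ccl6, at 124, 132 and 96.0 rescaled TPM, differed from the others on this scale: replicate 2 was highest and replicate 1 over replicate 2 was 0.936, whereas replicate 1 was highest with TPM as deposited and with edgeR TMM factors.

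The coefficient of variation over the 3 libraries was 16.2% for Ccl6, 36.2% for Ccl4, 41.4% for Ccl7, 63.9% for Ccl9, 65.4% for Ccl2 and 66.2% for Ccl3. The median of these 6 was 52.6%, beside 20.0% over the 9828 genes. The median log2 ratio of replicate 1 to replicate 2 was 1.17 over the 6 and 0.04 over all 9828, and for replicate 1 to replicate 3 it was 1.03 and -0.08. The scaling shifts such ratios. Over 9809 genes and without a pseudocount, the median log2 ratio of replicate 1 to replicate 2 was 0.05 with rescaled TPM. It was 0.57 with TPM as deposited, -0.15 with edgeR TMM factors and -0.19 with DESeq2 size factors. The direction for Ccl6 turned with the scaling, with replicate 1 over 2 at 1.34-fold with TPM as deposited, 1.02-fold with TMM and 0.989-fold with DESeq2 factors. Ccl3, Ccl9 and Ccl2 were at least 2-fold higher in replicate 1 than in replicate 2 under each of these scalings.

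On the rescaled level Ccl2, Ccl3 and Ccl9 had the same order over libraries as the starting RNA amount, beside 29.1% of 9828 protein-coding genes. That amount was highest for replicate 1 (1 µg) and lowest for replicate 2 (250 ng). The share of all protein-coding genes' isoform TPM in models annotated as retained intron also followed it, at 41.9%, 39.3% and 36.8% in replicates 1, 3 and 2. Depth ran the other way, at 10974934, 14376665 and 21376404 counts in replicates 1, 3 and 2. Starting amount and depth thus cannot be told apart here. The part of any of these in the spread of the chemokines was not tested. Ccl4, Ccl6 and Ccl7 did not have the order of the starting amount. For Ccl2 replicates 3 and 2 were close, at 38.4 and 37.6, and changed places with TMM and DESeq2 factors. Ccl5 and Ccl12 had too few counts for the same description. On the rescaled level Ccl5 was higher in replicate 2 than in replicate 1, at 10.9 against 7.24, and the second quantification gave the opposite direction, 14.0 against 18.4.

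**Figure D2:**
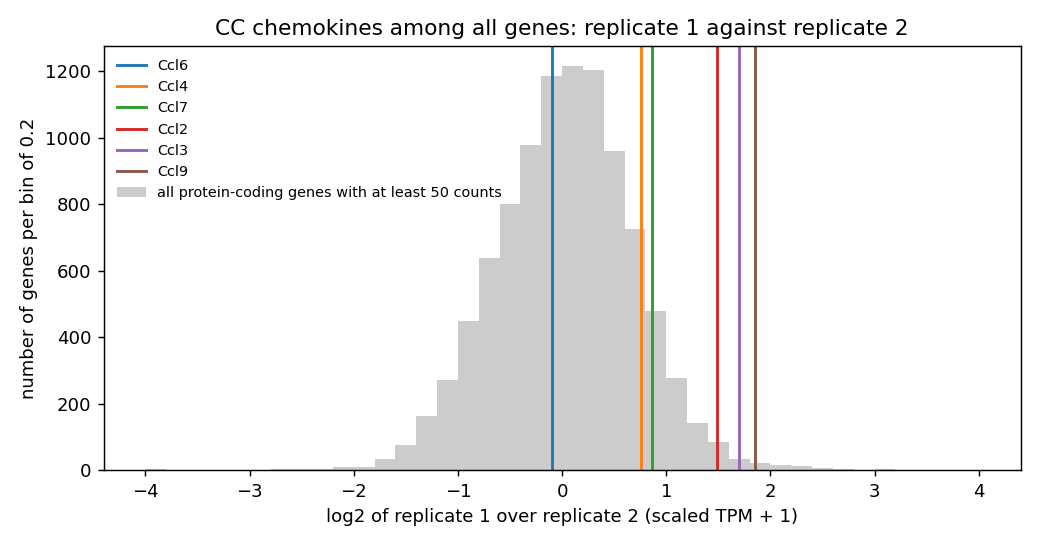
Distribution of the log2 ratio of replicate 1 to replicate 2, from rescaled TPM + 1, over 9828 protein-coding genes, with a vertical line for each of the 6 members with at least 50 counts in a library. Ccl2, Ccl3 and Ccl9 lie beyond the 2-fold ratio that 6.18% of all genes passed, and Ccl6 lies near 0 on this scale.

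Likeness of pattern was measured as the Euclidean distance between profiles over the 3 libraries of log2(rescaled TPM + 1) minus the gene's mean, among the members and 35 listed early response and reference genes. For Ccl2 the nearest were Cxcl2 (distance 0.147), a neutrophil chemoattractant, Il1a (0.179), a cytokine, and Tnfaip3 (0.212), an inhibitor of NF-kB signalling, beside a median of 0.895 over the list. For Ccl3 they were Dusp2 (0.152), a phosphatase of MAP kinases, Cxcl2 (0.158) and Tnfaip3 (0.181). These genes share with both members a high value in replicate 1.

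Ccl4 and Ccl7 were each other's nearest, at a distance of 0.0845, followed for both by Atf3, a stress-induced transcription factor, at 0.136 and 0.218. Next came Nfkbid (0.295) for Ccl4 and Tnfaip2 (0.237) for Ccl7. Ccl9 lay nearest to Dusp2 (0.249), Ccl3 (0.302) and Nfkbia (0.378), the gene of an NF-kB inhibitor. Ccl6 lay nearest to Ctsb, a lysosomal protease, at 0.0120, then to Eef1a1, a translation factor, at 0.249. Next to Ccl6 after these came Ccl20 at 0.342, whose profile is flat because it was at 0 in every library. Distances over 3 libraries are descriptions, and the points share library depth and makeup.

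**Figure D3:**
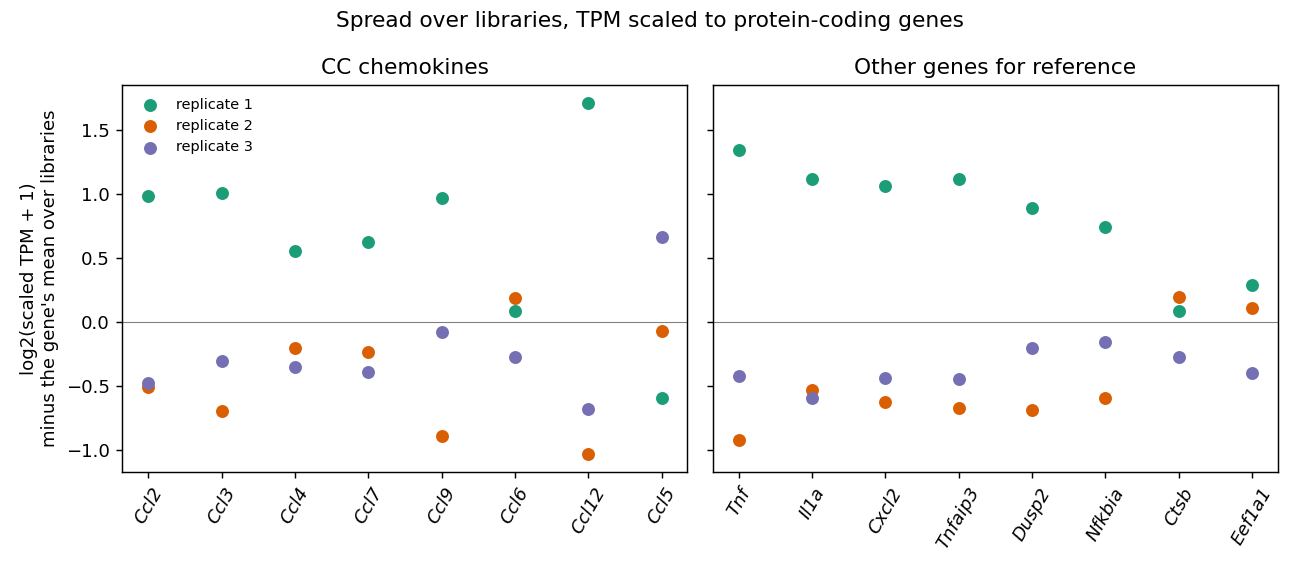
Deviation of each library from the gene's mean, in log2(rescaled TPM + 1), for the CC chemokines with counts (left) and for genes of the early response and reference list (right), with colours for the 3 libraries. Replicate 1 lies highest for Ccl2, Ccl3, Ccl4, Ccl7 and Ccl9 and for Tnf, Il1a, Cxcl2, Tnfaip3, Dusp2 and Nfkbia, while Ccl6 and Ctsb have replicate 2 highest on this scale (for Ccl6, replicate 1 with TPM as deposited and with TMM factors).

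The isoform table splits each gene's abundance over its annotated models, as percent. Ccl2-202, which keeps the whole of intron 2 (325 bases, chr11:82036601-82036925), took 77.13%, 85.02% and 79.83% of Ccl2 in replicates 1, 2 and 3, a mean of 80.7% ± 4.01 (SD, n = 3). The 2-exon model with the intron was thus above the spliced coding model in every library. The second quantification gave 55.7% ± 6.33 of Ccl2 TPM to Ccl2-202 (SD, n = 3). Such shares are model estimates and not counts of reads in the intron.

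Ccl5-202, which holds 428 of the 3091 bases of intron 2, took 70.55%, 81.14% and 46.15% of Ccl5, a mean of 65.9% ± 17.9 (SD, n = 3). These shares rest on the few counts of Ccl5. The second quantification gave 72.6% ± 8.12 to Ccl5-202 (SD, n = 3).

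Ccl6 was split over 3 models. The coding Ccl6-201 took 39.2% ± 8.31, Ccl6-203, with 284 of the 342 bases of intron 2, took 39.8% ± 4.21, and Ccl6-202, with 71 of the 3061 bases of intron 1, took 21.04% ± 4.39 (SD, n = 3 each). In the second quantification the order was different, with Ccl6-202 at 45.5% ± 3.43 (SD, n = 3) above Ccl6-203 at 31.9% and Ccl6-201 at 22.5%. In TPM the models with intron sequence together exceeded the coding model in both estimates. In counts, which follow model length, the coding Ccl6-201 took 69.8% ± 7.98 in the isoform table and 44.5% ± 9.35 in the second quantification (SD, n = 3 each). Ccl3, Ccl4 and Ccl7 have 1 annotated model each and give no such split.

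For Ccl9 the estimates split the TPM over different models. Ccl9-202 is a non-coding model of 398 spliced bases whose first exon of 39 bases lies in intron 1 of the coding Ccl9-201, which has 3006 spliced bases. The isoform table gave Ccl9-202 no counts in any library, so that Ccl9-201 held 100% of the gene. The second quantification gave Ccl9-202 81.0%, 82.6% and 79.0% of the TPM of Ccl9 in replicates 1, 2 and 3, at 208, 49.5 and 91.0 TPM. In counts this was 24.1% ± 2.52 of the gene (SD, n = 3), since the model is short. Ccl12-202, also non-coding, had 0% in the isoform table and 30.0% ± 8.68 in the second quantification (SD, n = 3).

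Over all members, models annotated as retained intron took 15.1%, 26.3% and 17.6% of the isoform TPM in replicates 1, 2 and 3, a mean of 19.7% ± 5.87 (SD, n = 3). Models of the same annotated kind took 39.3% ± 2.53 over all protein-coding genes (SD, n = 3). The members' share was lower than that of all genes in each library, and members with 1 annotated model, among them the 2 highest genes, can only enter as coding. In the second quantification, models not annotated as coding, retained intron or other, took 36.4% of the members' TPM, mostly through Ccl9-202.

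**Figure D4:**
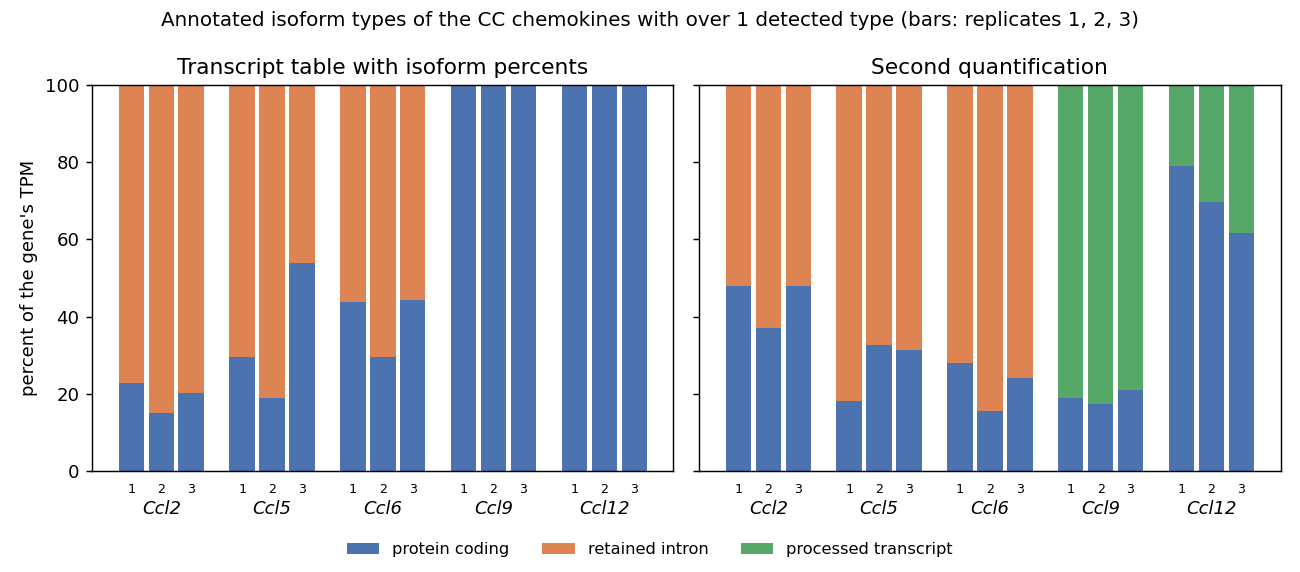
Percent of each gene's TPM in models annotated as protein coding, retained intron or processed transcript (non-coding), for Ccl2, Ccl5, Ccl6, Ccl9 and Ccl12, with a bar for each library, in the isoform table (left) and the second quantification (right). Ccl2 is mostly retained intron on the left, and Ccl9 goes from 100% protein coding on the left to 81.0%, 82.6% and 79.0% processed transcript on the right in replicates 1, 2 and 3.

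The 2 deposited estimates gave different levels for part of the members. Over 9799 protein-coding genes the median ratio of counts, second quantification over gene table, was 1.68 ± 0.0581 (SD, n = 3). The ratio was 1.78 for Ccl2, 2.07 for Ccl7, 1.98 for Ccl6 and 1.92 for Ccl9, near that median. For Ccl4 it was 4.08, 4.29 and 4.15 in replicates 1, 2 and 3, and for Ccl3 it was 3.42, 4.98 and 4.34. Ccl5, with ratios of 5.8, 2.91 and 4, and Ccl12, with 2.62, 6.00 and 3.17, also lay above the median in each library, on few counts. Ccl3 and Ccl4, 2 of the 6 members with at least 50 counts, had at least 3 times the counts in all 3 libraries, beside 4.99% of all genes under that rule.

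In TPM of the second quantification the order was led by Ccl9 at 144 ± 101, then Ccl4 at 132 ± 78.1 and Ccl3 at 94.1 ± 65.9 (SD, n = 3 each). Ccl9 was above Ccl3 there in 3 of 3 libraries, where in the gene table Ccl3 was above Ccl9 in 3 of 3. Ccl6 followed at 41.9 ± 7.05, Ccl2 at 20.3 ± 15.7 and Ccl7 at 18.6 ± 13.4 (SD, n = 3 each). Ccl5 at 7.78 ± 3.93 and Ccl12 at 7.47 ± 8.28 came last of those with at least 1 TPM (SD, n = 3 each). In this estimate 8 of the 10 reached 1 TPM in all 3 libraries, beside 53.3% of 21951 protein-coding genes.

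Related coding sequences could make reads hard to assign between members. Coding sequences of Ccl3 and Ccl4 were 69.8% identical and those of Ccl6 and Ccl9 66.7%, beside a median of 52.6% over 45 pairs of members. Over the whole spliced transcripts of the coding models, the longest stretch shared exactly by any pair was 25 bases, between Ccl6 and Ccl9. Introns and the other models were not compared. The expected counts of all 6 members with at least 50 counts were whole numbers in every library, to within 1e-06, beside 70.5% of genes under the same rule. Whether members shared reads was not tested.

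Genes that overlap a member on the other strand could share reads with it, since the use of strand is not given in the sources used here. Gm17268, opposite Ccl2, shares no exon base with it and had 0 counts in the gene table, while the second quantification put it at 11.2 TPM ± 4.28 (SD, n = 3). E230016K23Rik, opposite Ccl6, also shares no exon base with it and was at 0.713 TPM ± 0.56 (SD, n = 3). No other annotated gene overlapped a member.

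The neighbourhood of the chemokines held both genes with chromatin RNA and genes without. Of 77 annotated genes between the outermost members on chromosome 11 or within 50 kb of a member, 25 had a mean of at least 1 TPM and 32 had no count. The share of all annotated genes with such a mean is not given, and the 77 include pseudogenes and small RNA genes. Within 50 kb there were 24 genes, of which 2 reached that mean. These were Taf15, an RNA-binding protein gene near Ccl5, at 42.9 TPM ± 14.0, and Wfdc17, beyond Ccl4, at 2.89 TPM ± 1.18 (SD, n = 3 each). The other 23 lie farther away, between the 2 chemokine groups, and include Slfn2, Slfn3, Slfn4, Slfn5, Slfn5os, Slfn8, Slfn9, Slfn10-ps, Ap2b1, Lig3, Rffl, Rad51d, Nle1, Zfp830, AI662270, AA465934, Gm11423, Gm11425, Gm11427, Gm20234, Gm48434 and the small nuclear RNA gene Gm23444. Many of these belong to the Schlafen family, led by Slfn2 at 81.7 TPM ± 49.7 (SD, n = 3), above the mean of Ccl4.

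Of 11 other CC ligands listed, 1 reached 1 TPM in all 3 libraries, beside 42.4% of 22028 protein-coding genes, and 6 had no count. Ccl25, known as a thymic and gut ligand of CCR9, measured 35.96, 13.04 and 33.11 TPM in replicates 1, 2 and 3, a mean of 27.4 ± 12.5 (SD, n = 3). Its mean was between those of Ccl3 and Ccl9, and unlike theirs its values in replicates 1 and 3 were close. Ccl27a, a ligand of CCR10, had a mean of 1.16 TPM ± 0.292 (SD, n = 3). In the second quantification Ccl24, Ccl25 and Ccl27a, 3 of the 11, reached 1 TPM in all 3 libraries, beside 53.3% of 21951 protein-coding genes. Ccl24, at 6.38 TPM ± 0.969 there (SD, n = 3), had 0, 4 and 1 counts in the gene table.

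Of 10 CC receptors, 3 reached 1 TPM in all 3 libraries, beside 42.4% of 22028 protein-coding genes. Ccr1, which binds Ccl3, Ccl5, Ccl6 and Ccl9, measured 7.86, 3.88 and 6.88 TPM in replicates 1, 2 and 3, a mean of 6.21 ± 2.07 (SD, n = 3). RNA of ligand and receptor was thus found in the same libraries for these ligands. Ccr10 was at 1.23 ± 0.284, and Ccr9 had a mean of 1.62 ± 0.78 but fell under 1 TPM in replicate 2 (SD, n = 3 each).

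Ccr2, the receptor of Ccl2, Ccl7 and Ccl12, measured 0.84, 0.27 and 0.88 TPM in replicates 1, 2 and 3, below 1 TPM in each. These levels came from 51.12, 36.09 and 44 counts, above the floor of 3 counts in every library. The second quantification put Ccr2 at 5.24 TPM ± 3.07 (SD, n = 3), so whether it reached 1 TPM rested on the estimate. Ccr6, the receptor of Ccl20, had 0, 1 and 0 counts, and Ccr4, the receptor of Ccl22, had 9, 12 and 9. In the second quantification 5 of the 10 receptors reached 1 TPM in all 3 libraries, beside 53.3% of 21951 protein-coding genes. Among 5 atypical and related receptors, Ccrl2, which binds chemerin, measured 46.63, 10.65 and 40.33 TPM, a mean of 32.5 ± 19.2 (SD, n = 3). Ackr4, a scavenger of chemokines, was at 2.40 TPM ± 0.998 (SD, n = 3), and the other 3 did not reach 1 TPM.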

How the data were processed

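Chromatin RNA of 3 libraries was analysed as 1 group, with replicate numbers from the labels. The deposited gene and isoform tables give expected counts and TPM, per the file headers, and the isoform table gives the percent of a gene in each isoform. The second quantification is another deposited table per transcript, with estimated counts and TPM, summed here per gene. TPM was set by the authors to 1000000 over all features of a table. The build was mm10, per the labels. The sources used here do not give the aligner, the programs or the use of strand.

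The members and all lists were chosen with earlier results of these data known. All members were named. Other CC ligands, receptors and neighbouring genes were named at a mean of at least 1 TPM, and the 3 nearest profiles for members with at least 50 counts in every library; some genes that these rules take are not reported here. Slfn2, Ccl24, Ccr2, Ccr4, Ccr6, Gm17268, E230016K23Rik and Zbtb46 were chosen after their values were seen.

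Rescaled TPM sums to 1000000 over protein-coding genes. Log ratios of rescaled levels used a pseudocount of 1 for the distances, the 2-fold rule and the medians over 9828 genes, which understates differences of low genes. Medians compared between scalings, over 9809 genes, used none. Expected counts were rounded for TMM factors (edgeR 4.0.16) and size factors (DESeq2 1.42.0) in R 4.3.3. Levels, ratios and sequences were computed in Python 3.11.15 (pandas 2.3.3, scipy 1.17.1, numpy 2.4.6, biopython 1.88, matplotlib 3.10.9). The procedure that counts genes highest in replicate 1 was checked on simulated data with genes raised in that replicate. This checked the procedure and was no test of the members. Depth was 10974934 to 21376404 counts per library. Alternatives were the second quantification, other scalings and thresholds, and leaving out each replicate. The Poisson intervals and the floor of 3 counts cover counting error only.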

Additional observations from a re-analysis of the deposited data

Results flagged for a closer look

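Ccl22 had 0 expected counts in each library of the gene table, but the second quantification, which the levels above do not rest on, gave it 17, 28 and 16 estimated counts in replicates 1, 2 and 3, each above the floor of 3 counts. The same was found for 2765 of 21951 protein-coding genes (12.6%): more than 3 counts in all 3 libraries there and at most 3 in all 3 in the gene table. The reason was not tested.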

How the results depend on the processing

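With 1 group, 3 libraries and no control, only levels and their spread could be described. The members' summed level, 0.0693% of protein-coding TPM, was 0.119% in the second quantification and 0.0156% of the TPM of all annotated genes, the latter because the denominator is larger. The share of member RNA in non-coding models, 19.7% of isoform TPM, was 11.7% of expected counts and 36.4% in the second quantification. The median ratio of the quantifications was 1.45 in rescaled TPM and 2.54 in counts, an alternative chosen after seeing the data. This median was over the 8 members with more than 3 counts in every library, Ccl5 and Ccl12 with few counts included. In rescaled TPM the mean ratios ran from 0.857 for Ccl2 to 3.50 for Ccl9. Over 9799 protein-coding genes the medians were 0.934 in rescaled TPM and 1.68 in counts. The cause was not tested. Leaving out each replicate in turn gave 7 to 8 members detected, a summed level of 0.0518% to 0.0785%, 5 to 6 members highest in replicate 1 (without replicate 2 or 3), 4 to 5 separated pairs, 16.4% to 21.97% in non-coding models and a ratio of 1.39 to 1.48. Some of these omissions were also chosen after seeing the data. The count of members detected was 8 with the second quantification, at 0.5 TPM or above 3 counts. The share of all protein-coding genes was 53.3% with the second quantification and is not given for the other 2 rules. Members highest in replicate 1 were 6 of 6 with TPM as deposited and with TMM, and 5 of 6 with DESeq2 factors. In the second quantification they were 6 of the 8 members with at least 50 counts there. The share of all genes under these settings is not given. With TPM as deposited the median log2 ratio of replicate 1 to replicate 2 over all genes was already 0.57. The other ligands and receptors detected were 6 of those listed, and 10 in the second quantification, beside 42.4% and 53.3% of protein-coding genes. Of the 18 nearest profiles, 18 were shared with a pseudocount of 0.1 and 16 with TMM. No paired analysis was possible because the libraries form a single group.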
